A study of Mus musculus with 22 samples.

Results

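Polycomb repressive complex 2 (PRC2) is the chromatin complex that methylates a lysine in the tail of histone H3, a mark of silenced genes. The 9 genes described here were listed by name, with earlier results of these data known. They are the 2 catalytic subunits Ezh2 and Ezh1, the 3 core subunits Suz12, Eed and Rbbp4, and the 4 accessory subunits Jarid2, Aebp2, Mtf2 and Phf19. All 9 were measured, among 19938 genes in all, on each of 22 microarrays of mouse pluripotent cell lines.

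The arrays fall into 5 groups. Embryonic germ (EG) lines, which are pluripotent lines grown from primordial germ cells, came from day 8.5 embryos and were derived directly in 2i medium (EG 2i, 4 arrays), kept for 2 days in serum medium and then moved to 2i (EG 2is, 4 arrays), or derived and kept in serum medium (EG FCS, 4 arrays). Embryonic stem (ES) lines, which come from the early embryo, were profiled in 2i (ES 2i, 5 arrays) and in serum medium (ES FCS, 5 arrays). 2i medium is serum-free N2B27 with LIF, the MEK inhibitor PD0325901 and the GSK3 inhibitor CHIR99021, used on laminin, whereas FCS medium holds 15% foetal calf serum and LIF and was used on a feeder layer of mouse embryonic fibroblasts, so that medium and feeders changed together. All lines carry an Oct4-delta-PE-GFP transgene on a mixed background that includes 129SvEv. By their labels 3 of 4 EG 2i, 2 of 4 EG 2is and 1 of 4 EG FCS lines were female, as were 2 of 5 lines in both ES groups. The cell type label of all 10 ES arrays names EG cells while their titles and source names name ES cells, and the titles were followed. ES lines were moved from one medium to the other once established, per the design text, so ES arrays of the 2 media may share lines. Each p-value of a difference sets it against the spread of arrays within groups, estimated over all 5 groups together. It covers no other source of variation.

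In mammals EZH2, or its relative EZH1, carries the methyltransferase activity, which needs SUZ12 as the scaffold and EED as the subunit that binds the finished mark. RBBP4 binds histones in several chromatin complexes. The core joins alternative partners: in one form a Polycomb-like protein (PHF1, MTF2 or PHF19), in the other JARID2 together with AEBP2, and the partners help to place the complex at CpG-rich promoters. In mouse ES cells the mark covers promoters of silent developmental regulators, and cells without a core subunit can self-renew but differentiate poorly.

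Promoters are shown for Suz12, which was higher in 2i, for Jarid2 and Phf19, which were lower, and for Ezh2, which did not pass the test, so that the genes that moved can be set beside one that did not. Each runs 5′ to 3′ on the gene's own strand from 250 bases before to 50 bases after the RefSeq start (build GRCm38.p6), and capitals mark a match on either strand to one of the E2F words TTTCCCGC, TTTCGCGC, TTTGCCGC and TTTGGCGC. The Suz12 window is chr11:79992856-79993155 on the plus strand, the Jarid2 window (the first of 2 listed starts) chr13:44730524-44730823 on the plus strand, the Phf19 window chr2:34913927-34914226 on the minus strand and the Ezh2 window chr6:47594981-47595280 on the minus strand.
Suz12: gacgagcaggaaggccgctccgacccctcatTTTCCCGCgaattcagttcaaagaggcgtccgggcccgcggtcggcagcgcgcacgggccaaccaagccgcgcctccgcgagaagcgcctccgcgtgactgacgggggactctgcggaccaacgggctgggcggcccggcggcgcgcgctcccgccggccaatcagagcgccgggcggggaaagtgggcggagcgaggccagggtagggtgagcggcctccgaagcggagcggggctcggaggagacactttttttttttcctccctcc
Jarid2: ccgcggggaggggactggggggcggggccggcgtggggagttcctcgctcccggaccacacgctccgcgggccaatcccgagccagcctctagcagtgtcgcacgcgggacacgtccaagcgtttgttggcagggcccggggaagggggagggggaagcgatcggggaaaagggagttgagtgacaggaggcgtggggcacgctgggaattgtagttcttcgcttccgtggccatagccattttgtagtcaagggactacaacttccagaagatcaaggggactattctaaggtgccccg
Phf19: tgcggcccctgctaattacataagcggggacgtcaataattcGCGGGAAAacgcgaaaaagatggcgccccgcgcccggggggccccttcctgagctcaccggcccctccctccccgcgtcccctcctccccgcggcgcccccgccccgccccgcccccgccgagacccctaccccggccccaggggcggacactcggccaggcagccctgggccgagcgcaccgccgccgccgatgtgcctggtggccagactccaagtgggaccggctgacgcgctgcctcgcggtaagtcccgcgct
Ezh2: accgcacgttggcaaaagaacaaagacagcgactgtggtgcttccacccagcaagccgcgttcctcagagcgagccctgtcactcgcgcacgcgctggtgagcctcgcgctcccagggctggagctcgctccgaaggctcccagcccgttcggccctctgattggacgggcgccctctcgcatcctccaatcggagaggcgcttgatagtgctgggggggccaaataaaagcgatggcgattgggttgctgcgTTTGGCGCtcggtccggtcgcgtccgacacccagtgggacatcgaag

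RefSeq lists 13 promoters for the 9 members. Of these, 3 held an E2F word, those of Suz12 (first base at position -219 from the start), Phf19 (position -208) and Ezh2 (position 3), against 2.27% of all 32851 mouse promoters of this length (744 promoters). The word was thus present in one gene that was higher in 2i, one that was lower and one that did not pass the test, and it was in neither Jarid2 window. The 4 windows shown are GC-rich, with 71.0% GC and 41 CpG pairs for Suz12, 64.3% and 24 for Jarid2, 74.3% and 38 for Phf19, and 64.3% and 31 for Ezh2, against a median of 52.7% and 7 over all promoters. The 2.27% was taken over promoters of any GC content, so it is not a like background for these windows. Other words were scanned too. CACGTG was in 1 of the 13 promoters, CCAAT in 8 and GGGCGG in 8, against 7.15%, 37.4% and 35.7% of all promoters. All of these are matches of letters only and say nothing about binding.

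Expression is given as the log2 RMA level the authors deposited, and each difference is a log2 fold change ± its standard error from a limma fit of all 22 arrays with group, labelled batch and labelled gender as terms. A gene was called when its Benjamini-Hochberg adjusted p over all 19938 genes was under 0.05. Array medians ranged from 5.54 to 5.62, arrays of a group correlated at 0.982 to 0.998 over genes, and no 2 arrays were identical. The Y-linked gene Eif2s3y read 4.73 ± 0.08 in the 10 female arrays, where it has no transcript, and at most 4.88 (SD, n = 10), against 8.35 ± 0.36 in the 12 male arrays (SD, n = 12). The lines carried pluripotency transcripts in both media, with Pou5f1 at 11.38 to 11.67 in the 13 arrays of 2i and 2is lines and 11.59 to 11.70 in the 9 FCS arrays, and Nanog at 12.24 to 12.64 and 11.35 to 12.16 in the same sets.

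In EG lines derived in 2i, Suz12, Ezh1 and Mtf2 rose and Jarid2 and Phf19 fell against EG FCS lines, so that 5 of the 9 genes were called, where 23.9% of all genes were (11.4% higher and 12.5% lower). The same 2 falls and the rise of Suz12 were called in ES 2i against ES FCS lines, 3 of 9 genes where 31.6% of all genes were called (16.6% higher and 14.9% lower), a share close to that background. Over the 9 genes the median log2 fold change was 0.05 in EG 2i and 0.07 in ES 2i, against 0.0062 and 0.00036 over all genes, so the complex as a group did not shift one way. These are bulk samples, in which fewer cells of a type and less RNA per cell cannot be told apart.

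**Figure D1:**
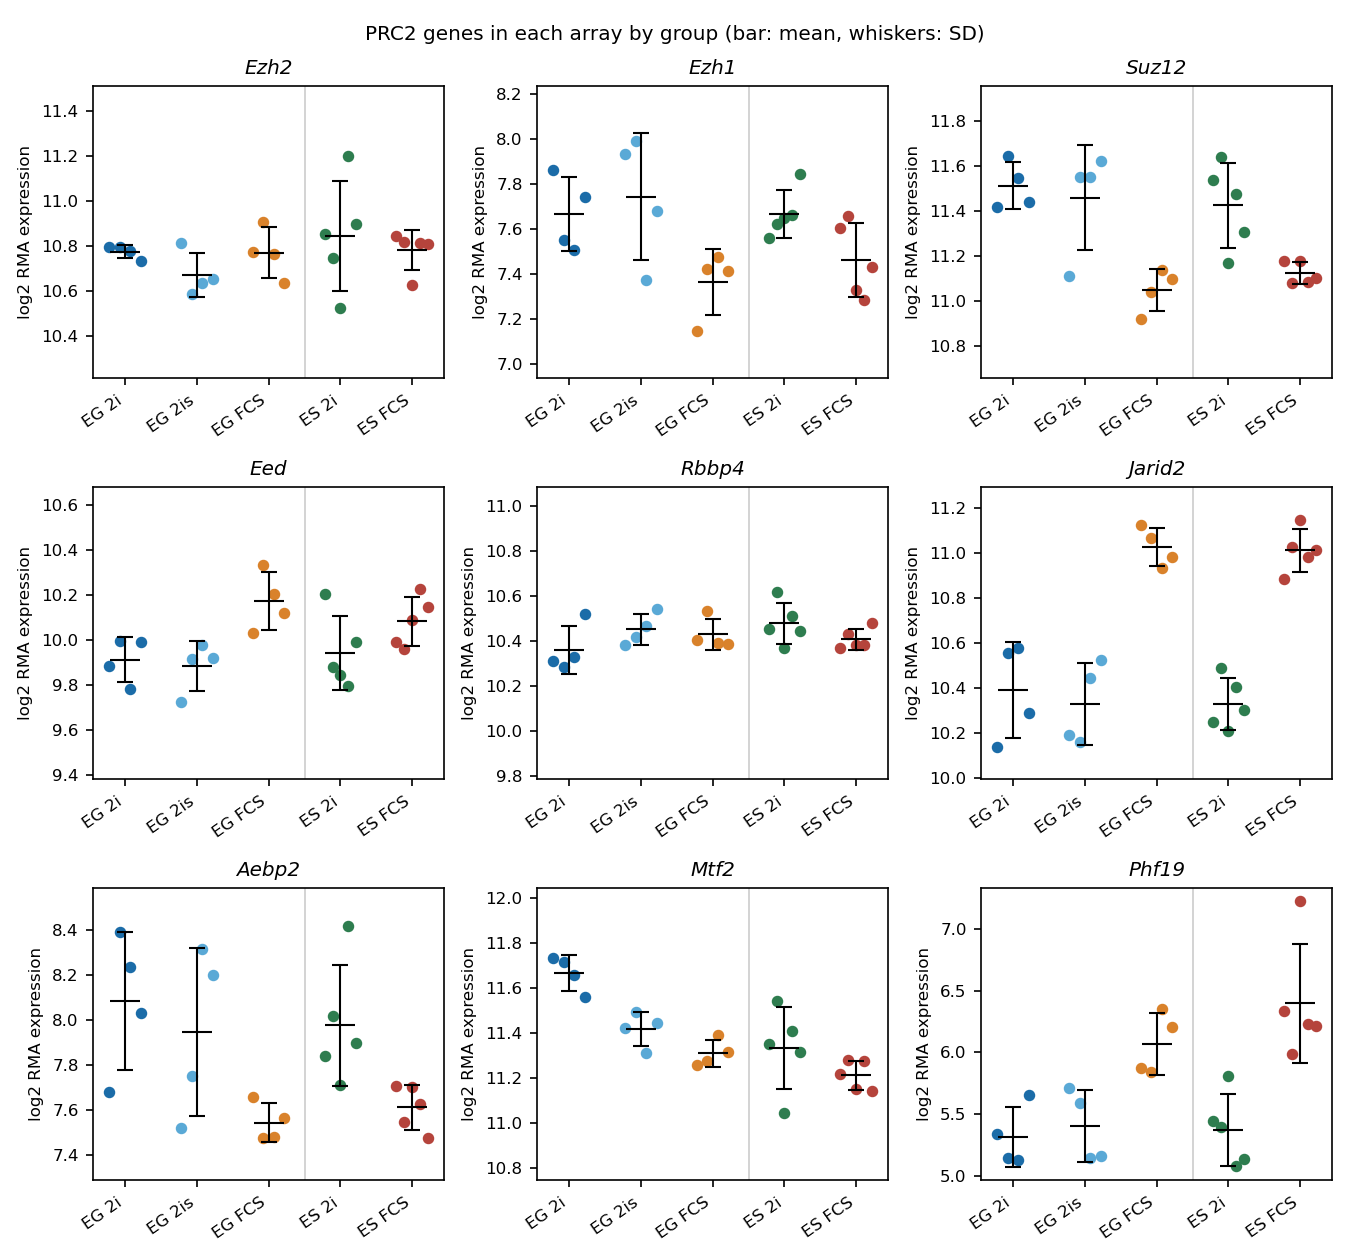
Log2 RMA expression (vertical axis) of the 9 PRC2 genes in each of the 22 arrays by group, with the bar at the group mean and whiskers of 1 SD; each panel has its own axis. Jarid2 and Phf19 are lower in every 2i and 2is array than in every FCS array, Suz12 is above every FCS array in 11 of 13, and Ezh2 and Rbbp4 overlap between media.

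Genes of a feeder fibroblast list moved with the medium, some far more than others. The mean level of 20 fibroblast genes lay between 5.96 and 6.12 in the 13 arrays of 2i and 2is lines and between 6.51 and 7.20 in the 9 FCS arrays. Of the 20 genes, 10 fell and none rose in EG 2i, 10 fell and 1 rose in EG 2is, and 13 fell and 3 rose in ES 2i, each against FCS. In the same comparisons 12.5%, 12.9% and 14.9% of all genes were lower, and 11.4%, 12.7% and 16.6% were higher. These shares also apply to the marker lists below. Among defining fibroblast genes Col1a1 read 5.31 to 5.61 in 2i and 2is lines and 6.33 to 7.63 in FCS lines, while Lum lay at 4.34 to 4.78 and 4.51 to 4.82 in the same sets. Col3a1 (4.89 to 5.43 and 5.36 to 5.66) and Dcn (4.40 to 4.83 and 4.69 to 5.66) overlapped between the sets. Acta2 (4.79 to 5.45 and 8.48 to 10.38) and Thbs1 (4.57 to 5.85 and 8.47 to 10.67) differed far more. The mean of the list was thus not an even shift of its genes. The mean of 10 pluripotency genes was 10.71 to 10.87 in 2i and 2is lines and 10.89 to 11.13 in FCS lines, with 2 of 10 higher and 2 lower in EG 2i. Of 10 primitive endoderm genes 3 fell in EG 2i, 5 in EG 2is and 2 in ES 2i (1 rose), of 8 trophoblast genes 2, 1 and 2 fell, and of 6 neural genes 2 (1 rose), 2 and 4 fell. The part of these cells and genes in the PRC2 values was not tested.

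Ezh2, the main methyltransferase of dividing cells, stood at 10.79, 10.79, 10.78 and 10.73 in EG 2i arrays 1 to 4, against 10.77, 10.91, 10.77 and 10.63 in EG FCS arrays 1 to 4. The groups overlapped, and the difference was 0.05 ± 0.10 (adjusted p = 0.799), with a 95% interval of -0.17 to 0.26. In EG 2is arrays Ezh2 read 10.81, 10.59, 10.63 and 10.65, a difference of -0.08 ± 0.10 from EG FCS (adjusted p = 0.645). ES 2i arrays read 10.85, 10.75, 10.52, 11.20 and 10.90, against 10.85, 10.82, 10.63, 10.81 and 10.81 in ES FCS arrays. ES 2i arrays 3 and 4 were the lowest and the highest of all 22 arrays. The ES difference was 0.06 ± 0.09 (adjusted p = 0.674, interval -0.12 to 0.24).

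Ezh1, the second methyltransferase, which is the more prominent one in resting tissues, showed another pattern. Its level was 7.86, 7.55, 7.51 and 7.74 in EG 2i arrays and 7.93, 7.99, 7.37 and 7.68 in EG 2is arrays, against 7.14, 7.42, 7.47 and 7.41 in EG FCS arrays. Every EG 2i array lay above every EG FCS array, and among the EG 2is arrays only array 3 fell inside the FCS range. Ezh1 rose by 0.39 ± 0.11 in EG 2i (1.31-fold, adjusted p = 0.0138) and by 0.43 ± 0.11 in EG 2is (1.34-fold, adjusted p = 0.00578). The EG 2i call was lost without the gender term (0.30, adjusted p = 0.0795) and without EG FCS array 1 (0.35, adjusted p = 0.0720). In ES lines it read 7.56, 7.62, 7.65, 7.66 and 7.84 in 2i, against 7.60, 7.66, 7.33, 7.28 and 7.43 in FCS. ES FCS arrays 1 and 2 were as high as the 2i arrays, and the difference of 0.21 ± 0.10 did not pass (adjusted p = 0.114), though it did without ES FCS array 1 (0.27, adjusted p = 0.0453) or ES 2i array 2 (0.27, adjusted p = 0.0493). It was -0.04 (adjusted p = 0.915) within batch 1, which holds arrays 1 and 2 of each ES group, and 0.37 (adjusted p = 0.0141) within batch 2, which holds arrays 3 to 5.

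Suz12, the scaffold without which the complex falls apart, was 11.42, 11.64, 11.54 and 11.44 in EG 2i arrays and 11.11, 11.55, 11.55 and 11.62 in EG 2is arrays, against 10.92, 11.04, 11.13 and 11.10 in EG FCS arrays. All EG 2i arrays lay above all EG FCS arrays, whereas EG 2is array 1 fell inside the FCS range and stood apart from the other 3 switched lines. The rise was 0.45 ± 0.11 in EG 2i (1.37-fold, adjusted p = 0.00362) and 0.41 ± 0.10 in EG 2is (1.32-fold, adjusted p = 0.00547). ES lines gave 11.54, 11.64, 11.17, 11.47 and 11.30 in 2i, against 11.18, 11.08, 11.18, 11.08 and 11.10 in FCS. Only ES 2i array 3 reached down into the FCS range. The ES rise was 0.30 ± 0.09 (1.23-fold, adjusted p = 0.0139), with 0.46 (adjusted p = 0.0488) within batch 1 and 0.20 (adjusted p = 0.152) within batch 2. The call was lost without ES 2i array 2 (0.25, adjusted p = 0.0528) or ES FCS array 2 (0.26, adjusted p = 0.0507).

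Eed, the subunit that reads the mark and stimulates the enzyme, ran the other way. It read 9.89, 10.00, 9.78 and 9.99 in EG 2i arrays and 9.73, 9.91, 9.98 and 9.92 in EG 2is arrays, against 10.03, 10.34, 10.21 and 10.12 in EG FCS arrays. Both EG groups in 2i lay wholly below the EG FCS arrays. The difference was -0.29 ± 0.09 in EG 2is, where Eed fell 1.22-fold (adjusted p = 0.0289), and -0.26 ± 0.10 in EG 2i, where it did not pass (adjusted p = 0.0621). The EG 2is call was lost without EG 2is array 1 (-0.23, adjusted p = 0.121) or array 2 (-0.30, adjusted p = 0.0509), without EG FCS array 2 (-0.24, adjusted p = 0.0975) or array 3 (-0.28, adjusted p = 0.0589), and with the mean of both Eed probe sets (-0.13, adjusted p = 0.148). The second of these Eed probe sets reads 4.28 to 4.70 over the 22 arrays. That range lies below the 4.88 that Eif2s3y reached in female arrays, where it has no transcript. In ES lines the values were 10.21, 9.88, 9.85, 9.80 and 9.99 in 2i, against 9.99, 9.96, 10.09, 10.23 and 10.15 in FCS, with ES 2i array 1 as high as the upper FCS arrays. The ES difference of -0.14 ± 0.08 did not pass (adjusted p = 0.238) unless ES 2i array 1 was left out (-0.23, adjusted p = 0.0258), and it was 0.07 (adjusted p = 0.824) within batch 1 and -0.28 (adjusted p = 0.0312) within batch 2.

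Rbbp4, the histone-binding subunit shared with other complexes, spanned only 10.29 to 10.62 over the 13 arrays of 2i and 2is lines and 10.37 to 10.54 over the 9 FCS arrays. Its differences were -0.04 ± 0.06 in EG 2i (adjusted p = 0.731), 0.04 ± 0.06 in EG 2is (adjusted p = 0.727) and 0.07 ± 0.06 in ES 2i (adjusted p = 0.398). The 95% intervals ran from -0.17 to 0.10, from -0.09 to 0.17 and from -0.05 to 0.18, the narrowest of the 9 genes.

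Jarid2, a catalytically inactive member of the JmjC family that helps to bring PRC2 to its targets, had the clearest difference between media. It read 10.14, 10.56, 10.58 and 10.29 in EG 2i arrays and 10.19, 10.16, 10.45 and 10.52 in EG 2is arrays, against 11.13, 11.07, 10.93 and 10.98 in EG FCS arrays. ES lines gave 10.25, 10.49, 10.21, 10.40 and 10.30 in 2i, against 10.89, 11.03, 11.15, 10.98 and 11.02 in FCS. The highest of the 13 arrays in 2i, at 10.58, lay below the lowest of the 9 FCS arrays, at 10.89. Of all genes, 8.63% had no overlap between these 13 and 9 arrays. Jarid2 fell by 0.67 in EG 2i (SE 0.11, 1.59-fold, adjusted p = 0.000113), by 0.71 in EG 2is (SE 0.10, 1.64-fold, adjusted p = 3.11e-05) and by 0.68 in ES 2i (SE 0.09, 1.60-fold, adjusted p = 8.90e-06). The EG 2i and EG 2is comparisons use the same EG FCS arrays. Within ES batches the difference was -0.59 (adjusted p = 0.0209) in batch 1 and -0.74 (adjusted p = 0.00137) in batch 2, and no left-out array ended a call.

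Aebp2, a zinc-finger protein found with Jarid2 in the same form of the complex, differed in the other direction with wide spread between lines. EG 2i arrays read 7.68, 8.39, 8.23 and 8.03 and EG 2is arrays 7.52, 7.75, 8.31 and 8.20, against 7.66, 7.47, 7.48 and 7.56 in EG FCS arrays. ES 2i arrays read 7.84, 8.02, 7.71, 8.42 and 7.90, against 7.71, 7.54, 7.70, 7.62 and 7.47 in ES FCS arrays. Neither the EG 2i nor the ES 2i arrays overlapped their FCS arrays, but the closest pairs were 7.678 against 7.658 in EG lines and 7.710 against 7.706 in ES lines. The differences were 0.48 ± 0.17 in EG 2i (adjusted p = 0.0527), 0.37 ± 0.17 in EG 2is (adjusted p = 0.119) and 0.36 ± 0.15 in ES 2i (adjusted p = 0.0704), none of them called. Aebp2 in EG 2i passed without EG 2i array 1 (0.61, adjusted p = 0.0103), in EG 2is without EG 2is array 1 (0.52, adjusted p = 0.0362), and in ES 2i without ES 2i array 3 (0.48, adjusted p = 0.0181) or with the replicate number as a block (0.36, adjusted p = 0.0170). Within ES batches it was 0.30 (adjusted p = 0.441) in batch 1 and 0.41 (adjusted p = 0.142) in batch 2.

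Mtf2, a Polycomb-like protein that binds unmethylated CpG-rich DNA, was 11.73, 11.72, 11.66 and 11.56 in EG 2i arrays and 11.42, 11.49, 11.31 and 11.44 in EG 2is arrays, against 11.26, 11.27, 11.39 and 11.32 in EG FCS arrays. It rose by 0.40 ± 0.07 in EG 2i (1.32-fold, adjusted p = 0.000524) and differed by 0.13 ± 0.07 in EG 2is (adjusted p = 0.212). ES lines read 11.35, 11.54, 11.04, 11.41 and 11.32 in 2i, against 11.22, 11.28, 11.15, 11.27 and 11.14 in FCS, a difference of 0.12 ± 0.06 (adjusted p = 0.170). By group mean the order was EG 2i (11.67 ± 0.08), EG 2is (11.42 ± 0.08), ES 2i (11.33 ± 0.18), EG FCS (11.31 ± 0.06) and ES FCS (11.21 ± 0.06) (SD, n = 4 or 5). The lowest EG 2i array, at 11.56, lay above each of the other 18 arrays, and each later pair of neighbours in this order overlapped. The ES difference was 0.20 (adjusted p = 0.211) within batch 1 and 0.07 (adjusted p = 0.604) within batch 2, and it passed without ES 2i array 3 (0.18, adjusted p = 0.0277).

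Phf19, another Polycomb-like protein, was 5.34, 5.15, 5.12 and 5.66 in EG 2i arrays and 5.71, 5.59, 5.14 and 5.16 in EG 2is arrays, against 5.87, 5.84, 6.35 and 6.20 in EG FCS arrays. ES 2i arrays read 5.44, 5.40, 5.81, 5.08 and 5.14, against 6.34, 5.98, 7.22, 6.23 and 6.21 in ES FCS arrays. As for Jarid2, each of the 13 arrays in 2i lay below each of the 9 FCS arrays. Phf19 was low in 2i, at 5.08 to 5.81, where array medians were 5.54 to 5.62. Eif2s3y read at most 4.88 in female arrays, where it has no transcript. Phf19 fell by 0.78 in EG 2i (SE 0.23, 1.72-fold, adjusted p = 0.0182), by 0.68 in EG 2is (SE 0.22, 1.60-fold, adjusted p = 0.0302) and by 1.02 in ES 2i (SE 0.20, 2.03-fold, adjusted p = 0.000464). The EG 2i call was lost without EG FCS array 3 (-0.69, adjusted p = 0.050, just over the threshold). The EG 2is call was lost without EG FCS array 3 (-0.58, adjusted p = 0.0879) or 4 (-0.63, adjusted p = 0.0684) and without EG 2is array 3 (-0.59, adjusted p = 0.0856) or 4 (-0.59, adjusted p = 0.0860). Within ES batches it was -0.74 (adjusted p = 0.0234) in batch 1 and -1.21 (adjusted p = 0.000295) in batch 2.

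**Figure D2:**
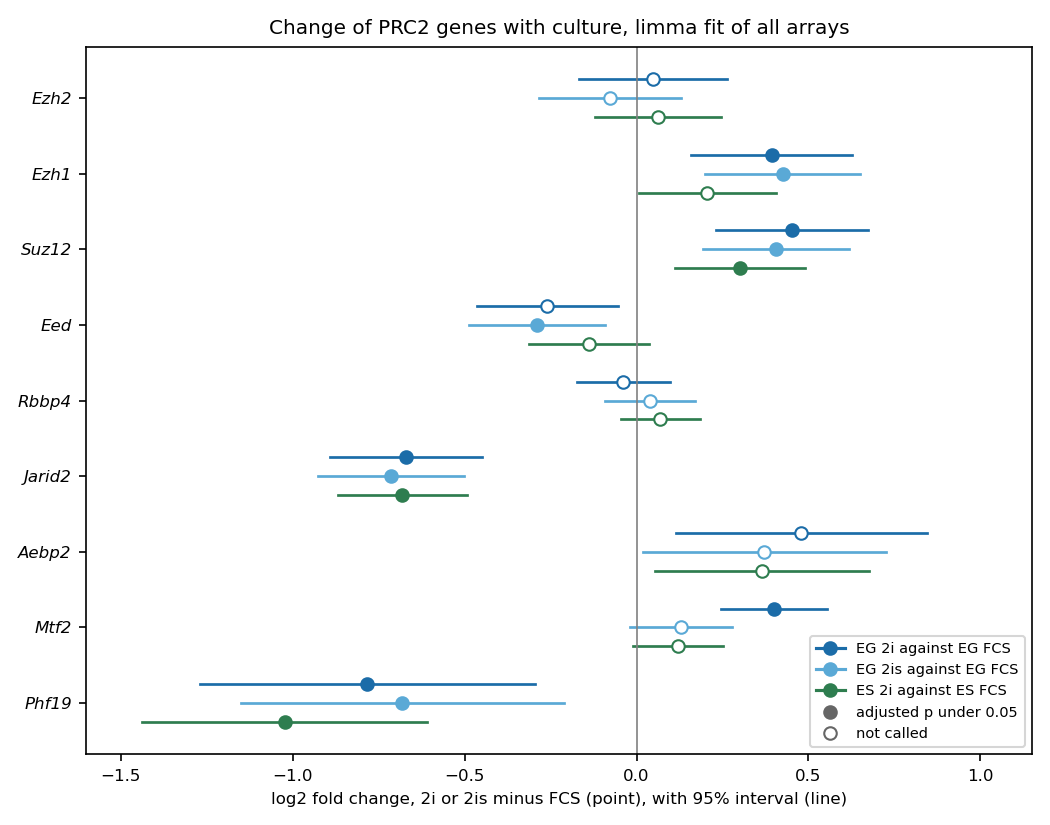
Log2 fold change of the 9 genes (horizontal axis; 2i or 2is minus FCS) from the limma fit, with 95% intervals as lines and filled points for an adjusted p under 0.05. Jarid2 and Phf19 lie to the left of 0 and Suz12 to the right in all 3 comparisons, while Mtf2 is filled in EG 2i only.

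In EG 2is against EG FCS lines, Suz12 and Ezh1 rose and Jarid2, Phf19 and Eed fell, again 5 of 9 genes, where 25.6% of all genes were called (12.7% higher and 12.9% lower). Groups did not overlap for 7 of the 9 genes in EG 2i (24.2% of all genes), for 3 in EG 2is (24.5%) and for 3 in ES 2i (22.2%). Over both origins, Suz12 and Aebp2 were above every FCS array in 11 of 13 arrays in 2i, Mtf2 in 9 and Ezh1 in 7, and Eed was below every FCS array in 8. With 1 male array in EG 2i, the count of called genes fell to 1 when only male lines entered the fit, which leaves a single EG 2i line.

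How lines reached 2i was compared within EG lines. Between EG 2i and EG 2is lines limma called 0 of the 9 genes and 0.0% of all genes, although 2116 genes, 1 of the 9 among them, had an unadjusted p under 0.05. That gene was Mtf2, at 11.56 to 11.73 in EG 2i and 11.31 to 11.49 in EG 2is, groups that did not overlap (as for 4.31% of all genes), with a difference of 0.27 ± 0.07 (adjusted p = 0.189). For the other 8 genes the differences lay between the -0.10 of Phf19 and the 0.12 of Ezh2.

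EG and ES lines of the same medium were compared next. In serum medium limma called 0 of 9 genes and 0.01% of all genes, with none of the 9 at an unadjusted p under 0.05 (979 of all genes). The 95% intervals of the EG minus ES difference were -0.19 to 0.27 for Jarid2 and -0.16 to 0.16 for Mtf2, but -0.73 to 0.29 for Phf19. In 2i, EG 2i against ES 2i again gave 0 of 9 (3.72% of all genes called, 3742 at an unadjusted p under 0.05), and Mtf2 came closest, higher in EG 2i by 0.28 ± 0.08 (1.21-fold, adjusted p = 0.050, just over the threshold). The Mtf2 arrays did not overlap, as for 9.69% of all genes, and the difference passed without the batch term (0.36, adjusted p = 0.00572) and without EG 2i array 4 (0.36, adjusted p = 0.0165) but not with batch 1 arrays only, where ES arrays 1 and 2 remain (0.23, adjusted p = 0.208). EG 2is against ES 2i gave 0 of 9 (0.0451% of all genes called, 1872 at an unadjusted p under 0.05).

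The EG and ES responses to 2i were set against each other by an interaction. None of the 9 genes was called, where 1.44% of all genes were (3149 at an unadjusted p under 0.05). Mtf2 had the only unadjusted p under 0.05 of the 9, with a response larger in EG lines by 0.28 ± 0.10 (adjusted p = 0.149), and the EG call of Ezh1 and Mtf2 without an ES call is therefore not a shown difference. For Jarid2 the difference of responses was 0.01 ± 0.14, with a 95% interval of -0.28 to 0.30, and for Phf19 it was 0.24 ± 0.31 (interval -0.40 to 0.88). Female against male lines gave 0 of 9 genes (3.62% of all genes called, 4121 at an unadjusted p under 0.05), with Ezh1 the only one of the 9 at an unadjusted p under 0.05 (-0.18 ± 0.07, adjusted p = 0.143).

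Lines in 2i differed among themselves more than lines in FCS for Aebp2, with SDs of 0.31 in EG 2i and 0.09 in EG FCS, and 0.27 in ES 2i and 0.10 in ES FCS (n = 4 or 5), a spread that was not tested. Between media Jarid2 fell, while Aebp2, with differences of the other sign, was not called. Across the 13 arrays of 2i and 2is lines, Aebp2 and Jarid2 were high together. Pearson r was 0.855 (permutation p = 0.00054, adjusted p = 0.0389) and Spearman rho was 0.819 (permutation p = 0.00113, adjusted p = 0.0814). The p-values were adjusted over 72 relations, 36 pairs of genes in 2 media, of which this was the only one with an adjusted p under 0.05 for r. Without the 2 arrays farthest from the median of Jarid2, r was 0.823, and over deviations from group means it was 0.850. Across the 9 FCS arrays r was 0.144 (exact permutation p = 0.704, adjusted p = 0.921). Aebp2 against Phf19 gave r = -0.765 in 2i (permutation p = 0.00349, adjusted p = 0.126), which did not pass.

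**Figure D3:**
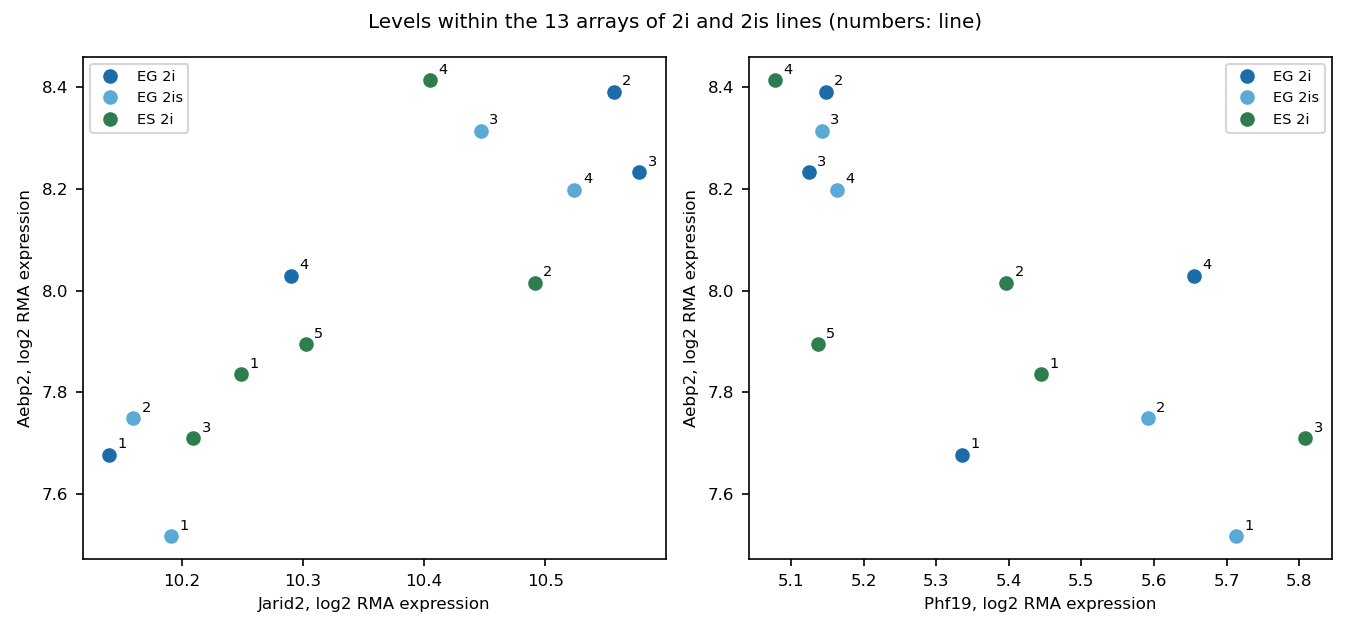
Log2 RMA levels of Aebp2 (vertical) against Jarid2 (left) and Phf19 (right) in the 13 arrays of 2i and 2is lines, coloured by group and numbered by array. Aebp2 and Jarid2 rise together (r = 0.855) and Aebp2 and Phf19 run apart (r = -0.765).

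X-linked transcription moved with these values in EG lines. The median difference of 197 X-linked genes from the other arrays of the group was 0.59 and 0.63 in EG 2i arrays 2 and 3 and 0.60 and 0.60 in EG 2is arrays 3 and 4, all 4 labelled female. It was -0.63 in the male EG 2i array 4, -0.68 and -0.53 in the male EG 2is arrays 1 and 2, and -0.61 in EG 2i array 1, which is labelled female. The 4 arrays with high X-linked levels had the highest Aebp2 and Jarid2 and the lowest Phf19 of the 8 EG arrays in 2i. The ES lines ran the other way: ES 2i arrays 1 and 3, labelled female, with X-linked medians of 0.36 and 0.60, had the lower Aebp2 and Jarid2 and the higher Phf19 of their group. The part of X-linked dosage in these levels was not tested.

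Ezh2 and Aebp2 both lie on chromosome 6, and the ES arrays that stood apart for Ezh2 stood apart for that chromosome. Over 250 chromosome 6 genes with a mean level of at least 7.5, the median difference from the other arrays of the group was 0.30 in ES 2i array 4 and -0.18 in ES 2i array 3, and 0.14 in ES FCS array 4 and -0.14 in ES FCS array 3. Over all 22 arrays the medians of the other autosomes that were summarised stayed between -0.10 and 0.10. Not every other autosome was among them, because the range was taken over a chosen set, and medians outside that set are not reported here. The range is therefore not a full contrast for chromosome 6, and whether chromosome 6 alone stood apart was not tested. Ezh2 differed from its group by 0.40 in ES 2i array 4, by -0.35 in ES 2i array 3 and by -0.19 in ES FCS array 3, and by 0.0003 in ES FCS array 4. Without these 4 arrays the ES difference of Ezh2 was 0.01 (adjusted p = 0.970), and 3 of 9 genes were called as before; these arrays were chosen after their values were seen. Ezh2 was not called with these arrays in the fit either (0.06, adjusted p = 0.674), so the refit is no test of chromosome 6. The part of chromosome 6 in the Ezh2 and Aebp2 values was not tested.

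**Figure D4:**
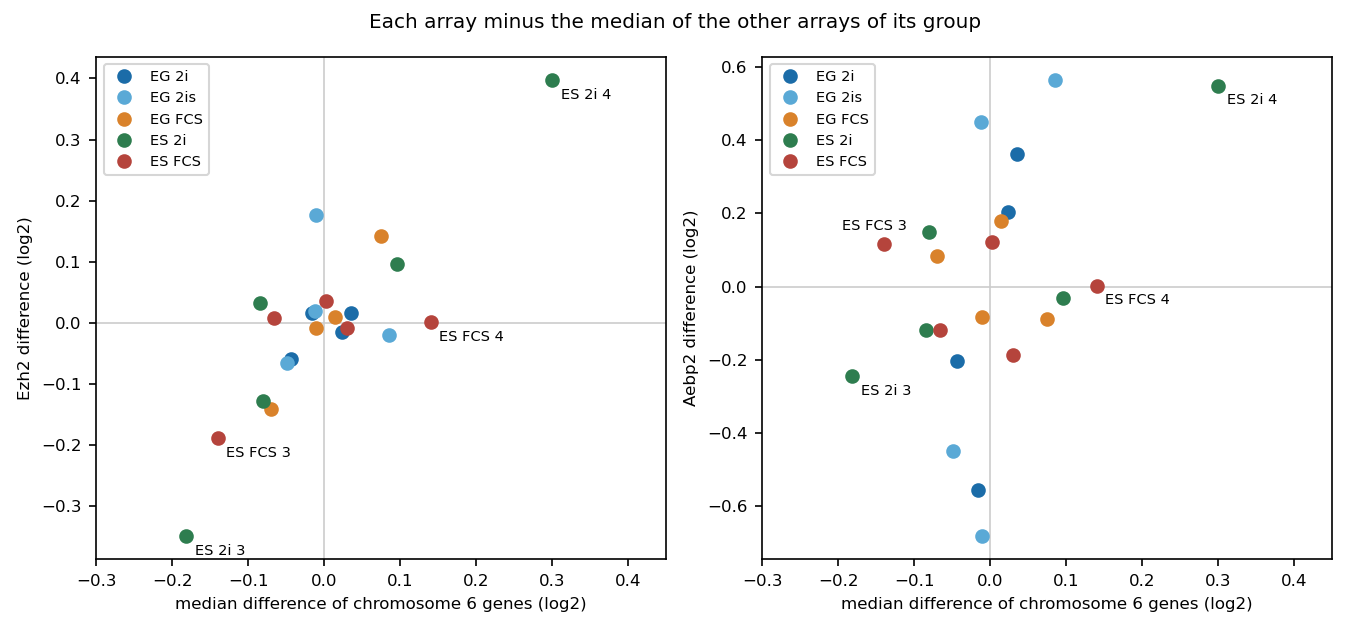
Difference of Ezh2 (left) and Aebp2 (right) from the median of the other arrays of the same group (vertical axis, log2) against the median difference of 250 chromosome 6 genes (horizontal axis, log2), 1 point per array. ES 2i array 4 (0.30, with Ezh2 at 0.40) and ES 2i array 3 (-0.18, with Ezh2 at -0.35) lie at opposite corners of the Ezh2 panel.

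The genes whose levels ran most like those of 3 members over the 22 arrays were listed by Pearson r, and since arrays cluster by medium the r within each medium is given. For Ezh2 they were Nav3 (r = 0.915 over the 13 arrays in 2i and 0.583 over the 9 FCS arrays), Thumpd3 (0.800 and 0.798) and Tmem168 (0.864 and 0.627), the last 2 of which also lie on chromosome 6. For Suz12 they were Eif2s2 (0.885 and 0.819), Gabarapl2 (0.820 and 0.470) and Bhmt (0.801 and 0.338). For Jarid2 they were Grhl2 (0.743 and 0.856), Rassf3 (0.633 and 0.121) and Slc39a14 (0.562 and 0.558). These genes were picked for their r over the same arrays, so the values are a description.

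Of 6 other PRC2 subunits, 1 was called in EG 2i (23.9% of all genes), 2 in EG 2is (25.6%) and 1 in ES 2i (31.6%). Rbbp7, the X-linked relative of Rbbp4, fell in EG 2i (-0.38 ± 0.11, adjusted p = 0.0162) and in EG 2is (-0.34 ± 0.11, adjusted p = 0.0218), at 10.42 ± 0.27 and 10.40 ± 0.19 against 10.69 ± 0.16 in EG FCS lines (SD, n = 4). Phf1, the third Polycomb-like gene, rose in EG 2is (0.25 ± 0.09, adjusted p = 0.0436). Epop, a partner of the Polycomb-like form, fell in ES 2i, at 8.66 ± 0.23 against 8.97 ± 0.23 in ES FCS lines (-0.30 ± 0.09, adjusted p = 0.0139). Epop (0.26, adjusted p = 0.0325) and the X-linked PRC2 inhibitor Ezhip (0.41, adjusted p = 0.0461) were higher in female lines, where 3.62% of all genes were called. Ezhip was low, with group means from 4.71 in ES 2i to 5.45 in EG 2i. Eif2s3y read at most 4.88 where it has no transcript.

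PRC1 genes, whose complex reads and reinforces the PRC2 mark, moved in both directions: of 20 measured (22 listed), 7 rose and 6 fell in EG 2i (11.4% of all genes higher and 12.5% lower), 7 rose and 4 fell in EG 2is (12.7% and 12.9%), and 5 rose and 5 fell in ES 2i (16.6% and 14.9%). Phc1, a polyhomeotic subunit, was 9.34 ± 0.31 in EG 2i against 10.44 ± 0.14 in EG FCS (-1.05 ± 0.14, adjusted p = 2.34e-05) and 9.39 ± 0.16 in ES 2i against 10.36 ± 0.20 in ES FCS (-0.97 ± 0.12, adjusted p = 4.33e-06). Kdm2b, which brings a variant PRC1 to CpG islands, fell in EG 2i (-0.73 ± 0.12, adjusted p = 0.000202), as did L3mbtl2 (-0.54 ± 0.09, adjusted p = 0.000142). Cbx8, a chromodomain reader of the mark, rose in EG 2i (0.68 ± 0.12, adjusted p = 0.000400) and in ES 2i (0.82 ± 0.10, adjusted p = 5.65e-06). Bmi1 (0.84 ± 0.09, adjusted p = 4.50e-07) and Phc3 (0.86 ± 0.11, adjusted p = 4.03e-06) rose in ES 2i. The list's median was -0.02 in EG 2i and -0.09 in ES 2i, so it had no single direction.

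Of 9 enzymes that remove the mark or oppose it, 1 rose and 1 fell in each of the 3 comparisons with FCS, where 23.9%, 25.6% and 31.6% of all genes were called in EG 2i, EG 2is and ES 2i. Kdm6b, a demethylase of the mark, rose in EG 2i (0.49 ± 0.11, adjusted p = 0.00263), EG 2is (0.32 ± 0.10, adjusted p = 0.0291) and ES 2i (0.54 ± 0.09, adjusted p = 0.000133). Ep300, an acetyltransferase of the same residue, fell in EG 2i (-0.28 ± 0.10, adjusted p = 0.0457), and Kdm6a, the X-linked demethylase, fell in ES 2i (-0.40 ± 0.13, adjusted p = 0.0220) and was higher in female lines (0.55 ± 0.09, adjusted p = 0.00400). Kmt2b was lower in EG 2i than in ES 2i (-0.34 ± 0.09, adjusted p = 0.0335).

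Known PRC2 targets of ES cells, all of them developmental regulators or cell-cycle inhibitors, were called in both directions. Of 21 measured (22 listed), 5 rose and 1 fell in EG 2i (23.9% of all genes called), 2 rose and 2 fell in EG 2is (25.6%), and 2 rose and 4 fell in ES 2i (31.6%), with list medians of 0.05, 0.02 and -0.03. Taken over both directions, these counts are near the shares over all genes. By direction, 11.4% of all genes were higher and 12.5% lower in EG 2i, where the rises of the list were above that share and the fall below it. The shares were 12.7% higher and 12.9% lower in EG 2is, and 16.6% and 14.9% in ES 2i. Whether the list differs from all genes was not tested. Cdkn2a, the locus of the cell-cycle inhibitors p16 and Arf, was 6.43 ± 0.12 in EG 2i against 6.03 ± 0.19 in EG FCS (0.37 ± 0.10, adjusted p = 0.0110) and 6.83 ± 0.12 in ES 2i against 6.11 ± 0.12 in ES FCS (0.72 ± 0.09, adjusted p = 2.73e-06). Pax6, a neural and eye regulator, was 5.43 ± 0.11 in EG 2i against 5.98 ± 0.17 in EG FCS (-0.54 ± 0.14, adjusted p = 0.00677), and 4.97 ± 0.14 in ES 2i against 6.28 ± 0.31 in ES FCS (-1.31 ± 0.12, adjusted p = 8.90e-08). Its response differed between the origins (0.77 ± 0.18, adjusted p = 0.0402), as did that of Neurog1 (0.42 ± 0.10, adjusted p = 0.0418), although no gene was called for this difference with batch 1 arrays only. Lhx2 rose in EG 2i (0.51 ± 0.08, adjusted p = 0.000127) and ES 2i (0.36 ± 0.07, adjusted p = 0.000493), Hoxa9 rose in EG 2i (0.25 ± 0.07, adjusted p = 0.00850) and Hand1 fell in ES 2i (-0.27 ± 0.08, adjusted p = 0.0171).

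Of 12 E2F and proliferation genes none rose, and 3 fell in EG 2i (12.5% of all genes lower), 3 in EG 2is (12.9%) and 4 in ES 2i (14.9%), with list medians of -0.16, -0.09 and -0.10. Cyclin E1 (Ccne1) was 9.47 ± 0.06 in EG 2i against 10.73 ± 0.17 in EG FCS (-1.27 ± 0.09, adjusted p = 7.84e-09) and 9.22 ± 0.16 in ES 2i against 10.61 ± 0.13 in ES FCS (-1.39 ± 0.07, adjusted p = 1.76e-10). The replication clamp gene Pcna fell by 0.40 (SE 0.07, adjusted p = 0.000528) in EG 2i and by 0.17 (SE 0.06, adjusted p = 0.0404) in ES 2i, and the proliferation marker Mki67 by 0.40 (SE 0.10, adjusted p = 0.00673) and 0.36 (SE 0.09, adjusted p = 0.00296). E2f3 fell in ES 2i (-0.52 ± 0.11, adjusted p = 0.00142).

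**Figure D5:**
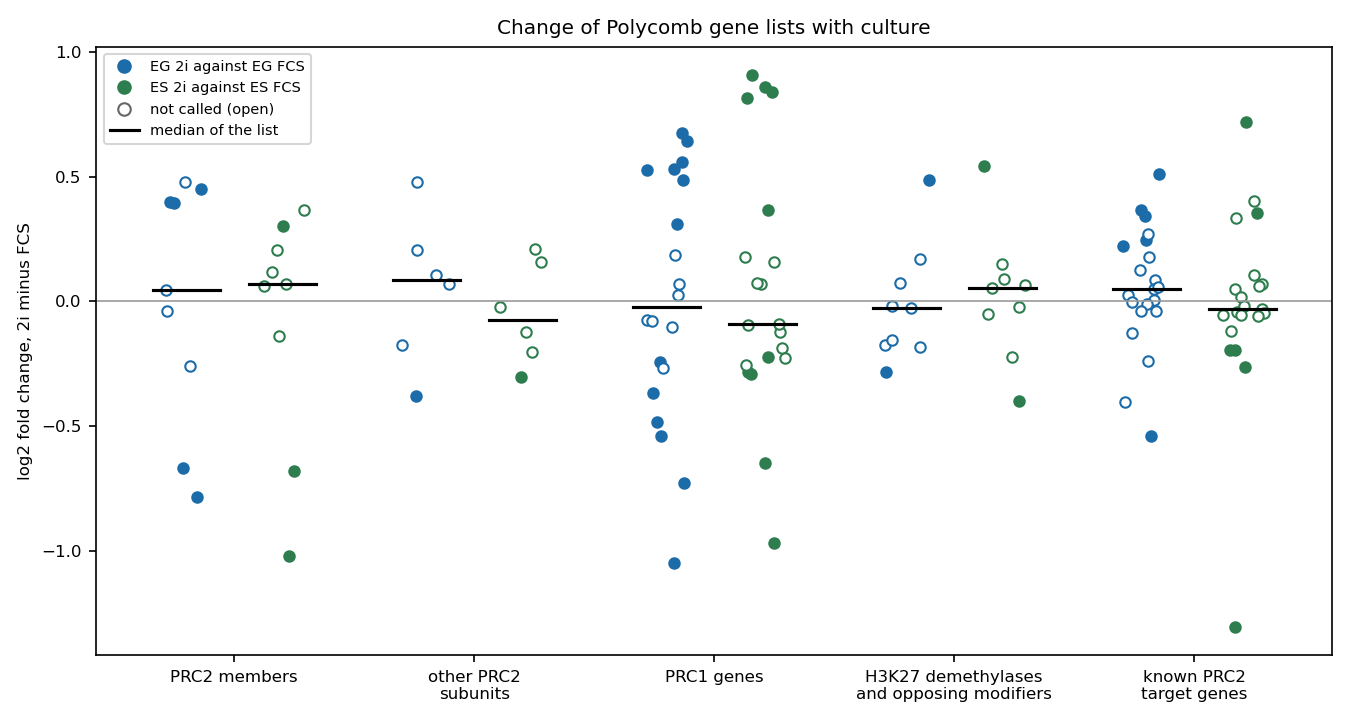
Log2 fold change (vertical axis; 2i minus FCS) of each gene of 5 Polycomb-related lists in EG and ES lines, filled where the adjusted p was under 0.05, with a bar at the list's median. Each list spreads on both sides of 0, with medians between -0.09 and 0.09.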

How the data were processed

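Total RNA of 22 samples of mouse EG and ES lines was hybridised to Affymetrix whole-transcript arrays, per the labels' protocols. The authors deposited log2 values per probe set, made with Affymetrix Expression Console and RMA per the submitters' processing notes, which also name limma; tool versions, genome build and any batch adjustment are not given in the sources used here. Of 28853 probe sets, 21789 have 1 gene symbol, 1621 several and 5443 none; 21698 matched RefSeq by Entrez ID. Each of 19938 genes was read from its probe set of highest mean. The log2 values were fitted with limma 3.58.1 (R 4.3.3) over all arrays with group, labelled batch and labelled gender, and p-values were Benjamini-Hochberg adjusted over all genes. Batch 1 holds all EG and 4 ES arrays, batch 2 the other 6 ES arrays, so EG against ES comparisons lean on the batch term. An alternative fit used a run term in place of batch, with runs A and B inside batch 1 and run C equal to batch 2. The main fit was also run on simulated data of independent noise, with changes placed in EG 2i only. Those data hold no batch, gender or shared-line structure, so the run bears on the code only. The number of arrays limits the precision. Levels were compared within a gene only, except where a low level was set beside the array medians or Eif2s3y.

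The 9 genes and all lists were chosen with earlier results of these data known. Named from each list were called genes of smallest adjusted p, up to 4 in EG 2i and in ES 2i against FCS and up to 2 in other comparisons, and the 3 genes most like Ezh2, Suz12 and Jarid2. Correlations used 100000 permutations in 2i arrays and exact permutation in FCS arrays (scipy 1.17.1). Promoters came from RefSeq (GRCm38.p6). Listed genes without a value are not reported here. Alternatives changed the model terms, batches, sexes, normalization, low-signal filter, probe set rule, replicate block and single arrays.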

Additional observations from a re-analysis of the deposited data

Results flagged for a closer look

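Among 45 sets of 1 gene in 1 group, 4 held an array far from the others by Dixon's test at its 95% level, where chance gives about 1 in 20. Suz12 read 11.11 in EG 2is array 1, against 11.55 to 11.62 in the other 3 arrays of that group. Ezh2 read 10.63 in ES FCS array 3, against 10.81 to 10.85 in the other 4. Phf19 read 7.22 in the same ES FCS array 3, against 5.98 to 6.34 in the other 4. Rbbp4 read 10.54 in EG FCS array 2, against 10.39 to 10.41 in the other 3. For ES FCS array 3, chromosome 6 genes had a median difference of -0.14 from their group, and Ezh2 lies on that chromosome while Phf19 lies on chromosome 2.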

How the results depend on the processing

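Over the alternatives, 1881 fold changes of the 9 genes were recomputed: 1835 stayed on their side of the threshold, 20 lost a call, 26 gained one, 171 differed in sign without being called in either setting, and 0 differed in sign with a call. The count of called genes in EG 2i against EG FCS was 5 and became 1 with male arrays only, where a single EG 2i array remains, and 4 to 6 when arrays were left out in turn. Leaving out arrays gave 3 to 5 called genes in EG 2is against EG FCS (3 without EG FCS array 3) and 2 to 5 in ES 2i against ES FCS (5 without ES 2i array 3). EG 2i against ES 2i gave 1 called gene, Mtf2, in place of 0 without the batch term, after quantile normalization again, with trend and robust moderation, with dim genes left out, with the mean of probe sets, and, among left-out arrays (0 to 1), without EG 2i array 4. In the other comparisons the count of 0 held under each alternative run. Jarid2 kept its call in all settings for the 3 comparisons with FCS, and Phf19 did so in ES lines. With male arrays only, Suz12 (0.35, adjusted p = 0.199), Mtf2 (0.23, adjusted p = 0.190), Ezh1 (0.31, adjusted p = 0.198) and Phf19 (-0.48, adjusted p = 0.148) in EG 2i and Suz12 in EG 2is (0.24, adjusted p = 0.224) were not called. Eed in EG 2i passed without the gender term (adjusted p = 0.0430), with arrays centred on their medians (0.0397), with dim genes left out (0.0470) and without EG FCS array 1 (0.0435). Aebp2 in EG 2i passed without the batch term (0.0449), without the gender term (0.0229), after quantile normalization again (0.0423) and with dim genes left out (0.0363), and in ES 2i with male arrays only (0.00578) and with ES arrays only (0.0465).

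Counts over all genes moved by over 1.5 times in these cases. EG 2i against EG FCS gave 4764 genes and 2282 with male arrays only. ES 2i against ES FCS gave 6298, 2460 with batch 1 arrays only and 4129 without ES arrays 3 and 4, a setting chosen after seeing the data. EG 2i against ES 2i gave 742, and 1758 without the batch term, 201 with batch 1 arrays only, 7 with male arrays only, 471 with the replicate block, 368 without ES arrays 3 and 4, and 301 to 872 without 1 array. EG 2is against ES 2i gave 9, and 33 without batch, 4 without gender, 70 with male arrays only and 1 to 43 without 1 array. EG FCS against ES FCS gave 2, and 6 without batch, 1 with batch 1 arrays only, 4 with male arrays only, 0 with dim genes left out and 2 to 4 without 1 array. The difference of responses gave 287, and 179 with the run in place of batch, 0 with batch 1 arrays only, 33 with male arrays only, 469 after centring, 82 with the replicate block, 17 without ES arrays 3 and 4 and 110 to 390 without 1 array. Female against male gave 721, and 25 with batch 1 arrays only, 33 without ES arrays 3 and 4 and 268 to 1204 without 1 array. The causes were not tested.

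The rule for pairing, a correlation over 0.1 for every pair, was not met, so the replicate numbers were not taken to pair the arrays: deviations of same-numbered ES arrays correlated at -0.01 to 0.24, those of EG 2i and EG 2is arrays at -0.56 to 0.32, and 2 of 5 ES arrays correlated best with their own number. Same-numbered ES arrays do share labelled gender and batch in 5 of 5 cases, and their chromosome 6 medians have the same sign for numbers 3 (-0.18 in 2i and -0.14 in FCS) and 4 (0.30 and 0.14); whether they are the same lines is not stated in the labels. With the replicate number as a block, 5 genes were called in EG 2i, 5 in EG 2is and 4 in ES 2i, each against FCS, the fourth being Aebp2.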
